A study of Mus musculus with 15 samples.

Results

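The genes described here encode the proteasome, the barrel-shaped protease that degrades ubiquitin-tagged proteins, and the factors that build, open or block it. They were taken by symbol (Psma, Psmb, Psmc, Psmd, Psme, Psmf or Psmg followed by a number), without use of any measured value. The rule found 49 genes among the 19500 with a probe set of their own, and where a gene had several, the brightest on average stood for it. Of these, 47 encode subunits, activators, the inhibitor or assembly factors of the proteasome. The other two, Psmc3ip and Psme3ip1, are named after a partner protein and are not subunits. Psmc3, an ATPase gene, and the activator gene Psme2b were not analysed here.

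The RNA came from Tg(Pcp2-L10a-Egfp) mice, which carry a tagged ribosomal protein, L10a-Egfp, under the promoter of Pcp2, a gene of cerebellar Purkinje cells. In tagged-ribosome purification (TRAP), ribosomes that carry the tag are pulled out of a tissue homogenate with antibodies, and the RNA bound to them is measured. All animals carried the transgene and no treatment is recorded, and cerebella were pooled before purification. There were 5 groups of 3 Affymetrix arrays, at postnatal day 0 (P0, newborn), P7, P15, P21 and P56 (adult). The comparisons ask how ribosome-bound RNA of the proteasome changed while the Purkinje cell matured. Sex is not stated in the labels used here, and no unpurified RNA was used, so no value is an enrichment over the tissue.

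The proteasome has a 20S core of stacked rings, the outer ones of alpha subunits and the inner ones of beta subunits, and the active sites face the inside. A 19S cap of ATPases and non-ATPase subunits binds ubiquitin chains, removes them, unfolds the protein and feeds it into the core. Dedicated chaperones assemble the rings, and other activators (PA28, PA200) can take the place of the cap. Neurons use the proteasome for protein quality control and for turnover of synaptic proteins.

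Values are log2 signals of a probe set, so a difference of 1 is a change of 2-fold, and levels of different genes are not comparable with each other. The median over the 49 genes lay between 10.31 and 10.33 on the P0 arrays, 10.77 and 10.79 at P7, 10.60 and 10.65 at P15, 10.61 and 10.81 at P21, and 10.74 and 10.84 at P56. The median over all probe sets of an array was lowest at P56, with 7.59 to 7.60, against 7.91 to 7.93 at P0. No background level is given, so a signal under an array's lower quartile (5.86 to 6.01) is not shown to be above background. Psma8 lay there on all arrays up to P21 and on 2 of 3 at P56, Psmb11 on most arrays before P56, and Psmb8 on all P0 arrays.

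The labelled cell type was checked against its markers. The mean of 14 Purkinje cell markers was 13.12 to 13.16 on the P56 arrays and 13.00 to 13.02 at P7, against 9.83 to 9.85 at P0, and all 14 were higher at P7 than at P0. Markers of other cells moved between the same ages. The mean of 12 microglial markers was 6.63 to 6.71 at P7, against 8.01 to 8.04 at P0, and 11 of the 12 were lower, while Aif1 lay under the lower quartile on every array. The mean of 9 endothelial markers was 6.69 to 6.75 at P7, against 8.71 to 8.79 at P0, and all 9 were lower. Granule cell and oligodendrocyte markers were higher on balance. The mean of 9 granule cell markers was 10.63 to 10.76 at P7, against 8.75 to 8.79 at P0, with 6 higher, each by at least 1, and 1 lower. The mean of 10 oligodendrocyte markers was 9.69 to 9.86 at P7, against 8.16 to 8.29 at P0, with 8 higher and 2 lower. Of 7 markers of astrocytes and Bergmann glia 2 were higher and 4 lower, and of 9 cell cycle genes 2 were higher and 2 lower. Over all probe sets, 33.6% were higher and 28.5% lower at P7 than at P0. The cell cycle shares (22.2% each) and the higher share of the astrocyte and Bergmann glia list (28.6%) were not far from these. The part of these lists in the results below was not tested. How many ribosomes carried the tag is unknown for every age, so against P0 a difference in capture cannot be told apart from a difference within Purkinje cells. Fewer cells of a type and less RNA per cell likewise cannot be told apart.

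Nearly all of the 49 genes changed with age. The counts over the 49 include Psmc3ip and Psme3ip1, which are not subunits. With limma's F-test, 48 of the 49 differed between some ages, against 81.6% of all probe sets, and the exception was Psmf1. The change came mainly in 2 steps, called waves here, between P0 and P7 and between P21 and P56. The same 2 steps also had the largest shares of differing probe sets over the whole array. The ages are unevenly spaced, and the step from P21 to P56 is the longest. A gene was called at an adjusted p under 0.05 over all 22092 probe sets. At P7, 40 genes were higher than at P0 and 3 were lower, where 33.6% of all probe sets were higher and 28.5% lower. The median change of the 49 genes was 0.53, against 0.05 over all probe sets. At P56, 22 genes were higher than at P21 and 17 were lower, where 22.1% of all probe sets were higher and 34.3% lower. The median of this last step was 0.02 for the 49 genes, against −0.03 over all probe sets.

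The steps between were smaller, and no member changed by 1 or more in either. At P15, 1 gene (Psmg2) was higher than at P7 and 14 were lower, where 10.4% of all probe sets were higher and 13.6% lower. With all array medians set to 0 these counts were 5 and 11, where 16.2% of all probe sets were higher and 9.86% lower. Leaving out a single array gave up to 3 higher genes (without P21 replicate 3, P56 replicate 2 or P56 replicate 3) or 2 (without P0 replicate 2, P15 replicate 1, P21 replicate 1 or P56 replicate 1). At P21, 6 genes were higher than at P15 and 6 were lower, where 10.5% of all probe sets were higher and 7.16% lower. With medians set to 0 the counts were 3 and 9, where 8.53% of all probe sets were higher and 10.1% lower. The P21 counts rest on single arrays. Without P15 replicate 3, 2 genes were higher and 3 lower, and without P21 replicate 1 or replicate 3 the higher count was 3. The higher count was 4 to 8 on leaving out any array other than these 3, and the lower count 4 to 7 on leaving out any array other than P15 replicate 3. P15 replicate 3 was the lowest of its age for 26 of the 49 genes. Replicate 3 was likewise the lowest for 25 genes at P0, 24 at P21 and 23 at P56, and for 16 at P7. The cause was not tested. By age, 3 genes had their highest mean at P0, 17 at P7, 9 at P15, 2 at P21 and 18 at P56.

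From end to end, 31 genes were higher at P56 than at P0 and 12 were lower, where 40.1% of all probe sets were higher and 35.3% lower. The median change was 0.54, against 0.08 over all probe sets. A change of at least 1 was reached by 11 rises and 4 falls, where 11% of all probe sets rose and 16% fell by that much. Setting array medians to 0 moved every P56 minus P0 change up by 0.32 and gave 37 higher and 7 lower. In that setting 61.7% of all probe sets were higher and 26.3% lower. The same setting added 0.23 to each P56 minus P21 change, which gave 26 higher and 14 lower. There 49.9% of all probe sets were higher and 22.3% lower. Against P7, the P56 arrays had 18 genes higher and 24 lower, where 25.4% of all probe sets were higher and 34.2% lower. Here the setting added 0.26 and turned the balance to 23 higher and 17 lower. The balance over all probe sets turned too, to 55.6% higher and 21.8% lower.

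**Figure D1:**
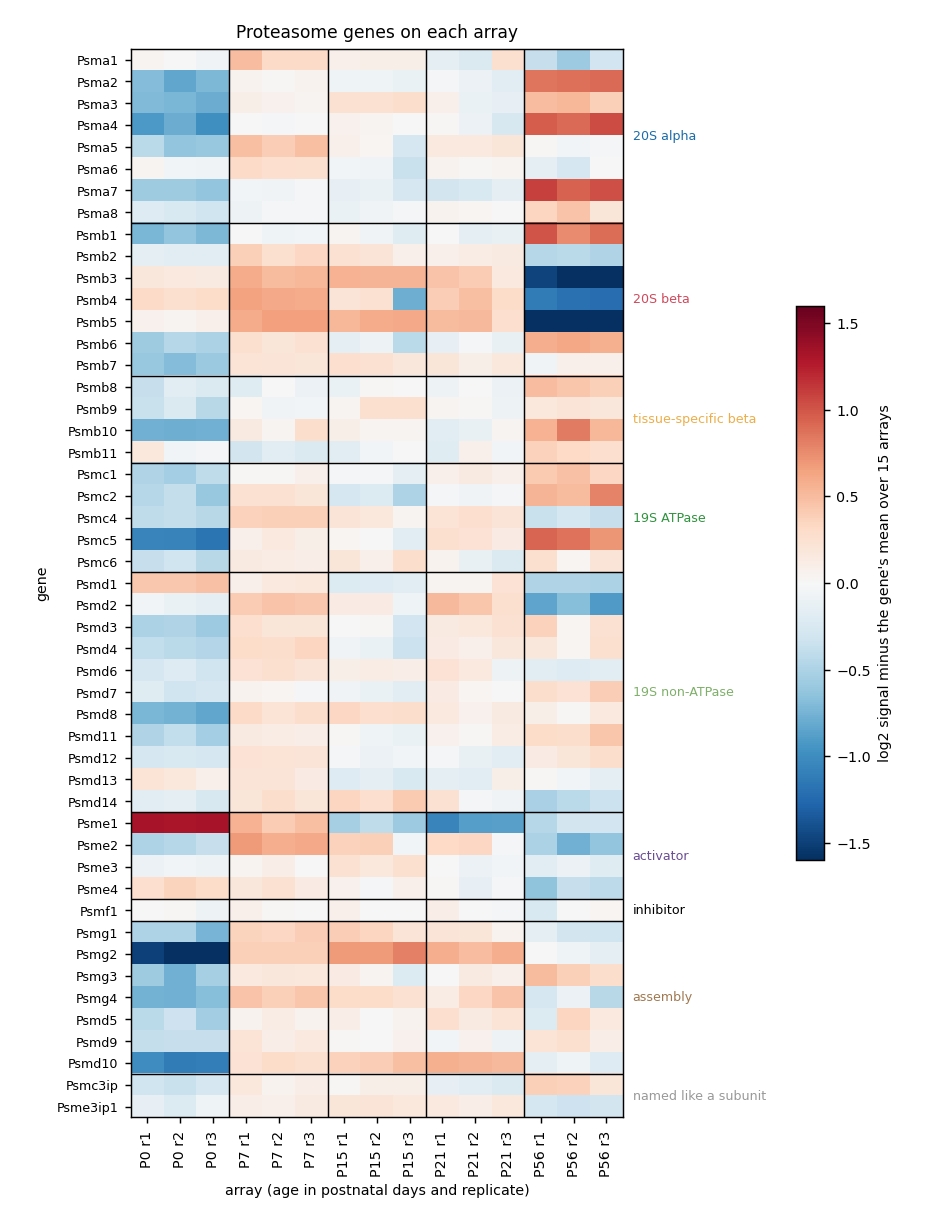
Log2 signal of each of the 49 genes (rows, grouped by role) on each of the 15 arrays (columns, by age and replicate), as the difference from the gene's own mean over all arrays. Colours stop at 1.6 in either direction. The mean was lowest at P0 for 32 of the 49 rows and at P56 for 13, and at P56 the rows separate into genes above and genes below their mean.

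The first wave ran through both rings, the cap and the assembly factors. All 8 alpha genes, 6 of 7 constitutive beta genes and all 5 measured ATPase genes were higher at P7 than at P0. So were 9 of 11 non-ATPase genes and all 7 assembly genes, where 33.6% of all probe sets were higher. Psma8, an alpha gene, lay under the lower quartile on all P0 and P7 arrays. The activators and the tissue-specific catalytic genes did not follow as groups, with 1 of 4 (25%) and 2 of 4 (50%) higher and 1 lower in each (25%). The activator shares were not far from the 33.6% higher and 28.5% lower of all probe sets, nor was the lower catalytic share. Among the first-week calls, that of Psma8 ended without P0 replicate 3 and that of Psmb11, the lower catalytic gene, without P0 replicate 1. Psmb11 lay under the lower quartile on 2 P0 arrays and on all P7 arrays. The last wave split the same groups. At P56, 5 alpha genes were higher than at P21 and 1 was lower, and 2 beta genes were higher and 4 lower. Of the ATPase genes 4 were higher and 1 was lower, of the non-ATPase genes 3 were higher and 4 lower, and of the assembly genes 2 were higher and 4 lower. The non-ATPase shares, 27.3% higher and 36.4% lower, were near the 22.1% and 34.3% of all probe sets. The higher shares of the beta and assembly genes, 28.6% each, were not far from 22.1% either. Over the 49 genes the lower share, 34.7%, was near that of all probe sets. Of the 40 genes that rose in the first wave, 19 rose again in the last step, 14 fell and 7 were not called. Markers of other cells moved with the last step too, where 34.3% of all probe sets were lower and 22.1% higher. Of the oligodendrocyte markers 9 of 10 were lower, with a list mean of 9.42 to 9.55 at P56, against 10.53 to 10.78 at P21, and the largest change was −2.12, for the myelin gene Mog. Of the markers of astrocytes and Bergmann glia 5 of 7 were lower and 1 was higher, with a mean of 9.36 to 9.57 at P56, against 9.90 to 9.95 at P21. Lower were also 6 of 12 microglial and 5 of 9 endothelial markers, with none higher, and 4 of 9 granule cell markers and 4 of 9 cell cycle genes, with 1 higher in each. The granule cell and cell cycle lists had 44.4% lower each, not far from the 34.3% of all probe sets. Of the Purkinje cell markers 7 of 14 were higher and 2 lower. The part of these lists in the split was not tested.

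**Figure D2:**
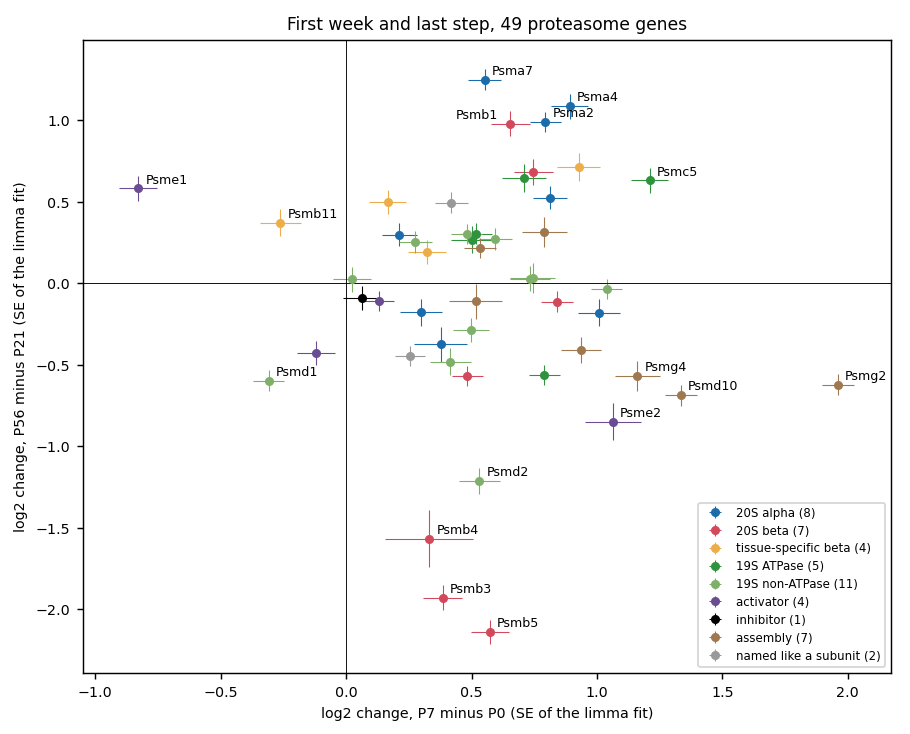
Log2 change from P0 to P7 (horizontal axis) and from P21 to P56 (vertical axis) for each of the 49 genes, with the SE of the limma fit, coloured by role. Most points lie right of 0, and they spread from 1.25 (Psma7) down to −2.14 (Psmb5) on the vertical axis.

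Alpha subunits form the outer rings of the core and its gate. The ring did not move as a unit. At P56, 6 genes were higher than at P0 (75%), Psma1 was lower (12.5%) and Psma6 was not called. Of all probe sets 40.1% were higher and 35.3% lower. Psma4 rose most. Its probe set (10585474) read 10.27, 10.39 and 10.20 at P0, 11.18, 11.16 and 11.18 at P7, 11.25, 11.22 and 11.18 at P15, 11.20, 11.09 and 10.92 at P21 and 12.14, 12.09 and 12.23 at P56. The values at P56 lay above those of every other age. Its change was 0.89 (SE 0.08, adjusted p 9.39e-09) in the first week, 1.08 (SE 0.08, adjusted p 2.31e-09) in the last step and 1.87 (SE 0.08, adjusted p 2.38e-13) from end to end.

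Psma7, the alpha subunit with the largest last step, read 9.96, 9.95 and 9.89 at P0, 10.48, 10.47 and 10.51 at P7, 10.40, 10.42 and 10.26 at P15, 10.24, 10.28 and 10.37 at P21 and 11.61, 11.47 and 11.55 at P56. The P56 arrays stood above all others by more than the spread within any age. It was higher by 1.25 (SE 0.07, adjusted p 8.95e-11) at P56 than at P21 and by 1.61 (SE 0.07, adjusted p 3.2e-13) than at P0. Psma2 and Psma3 were also higher at P56 than at P0, by 1.63 and 1.21. All 3 probe sets of Psma3 gave end-to-end rises, of 1.20 to 1.27.

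Psma1 went the other way. Its signals were 11.44, 11.40 and 11.33 at P0, 11.89, 11.70 and 11.70 at P7, 11.47, 11.48 and 11.49 at P15, 11.25, 11.16 and 11.64 at P21 and 11.02, 10.82 and 11.08 at P56. The P56 arrays were the lowest, below those at P0 without overlap. The difference was −0.42 (SE 0.10, adjusted p 0.00172) from P0 and −0.38 (SE 0.10, adjusted p 0.00545) from P21. Both calls ended with array medians set to 0, where the changes were −0.09 and −0.14. Psma8, known as a core subunit of male germ cells, lay near or under the lower quartile throughout, and its end-to-end change of 0.58 has no level shown to be above background before P56.

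The 3 constitutive active sites of the core did not move together. Psmb5 carries the chymotrypsin-like site, Psmb6 the caspase-like site and Psmb7 the trypsin-like site. Psmb5 (probe set 10419810) read 12.54, 12.51 and 12.55 at P0, 13.06, 13.13 and 13.12 at P7, 13.00, 13.07 and 13.07 at P15, 12.98, 12.99 and 12.74 at P21 and 10.88, 10.69 and 10.73 at P56. It was highest between P7 and P21, and the P56 arrays lay below every array of every other age. At P56 it was lower than at P21 by a log2 change of −2.14 (SE 0.07, adjusted p 1.19e-12) and lower than at P0 by −1.77 (SE 0.07, adjusted p 4.7e-13).

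Psmb6 (probe set 10377851) read 10.88, 11.00 and 10.95 at P0, 11.71, 11.65 and 11.70 at P7, 11.30, 11.38 and 11.03 at P15, 11.33, 11.43 and 11.33 at P21 and 12.03, 12.07 and 12.02 at P56. Its P56 arrays were the highest of the series. The change was 0.75 (SE 0.08, adjusted p 1.82e-07) in the first week, −0.45 (SE 0.08, adjusted p 0.000456) from P7 to P15 and 0.68 (SE 0.08, adjusted p 1.11e-06) in the last step, which ended 1.10 above P0. Psmb7 read 10.83, 10.75 and 10.85 at P0, 11.66, 11.65 and 11.64 at P7, 11.70, 11.68 and 11.62 at P15, 11.63, 11.54 and 11.60 at P21 and 11.38, 11.52 and 11.52 at P56. Its arrays from P7 on all lay above those at P0. The change was 0.84 (SE 0.06, adjusted p 1.82e-09) in the first week, and the last step of −0.11 was not called (adjusted p 0.134), nor was its value of 0.12 with array medians set to 0.

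The promoters of Psmb5 and Psmb6, whose last steps ran in opposite directions, are shown with that of Psma4, the alpha gene with the largest end-to-end rise. They come from RefSeq (build GRCm38.p6) and run 5′ to 3′ on the gene's own strand, from 250 bases before the annotated start to 30 after it. Capitals mark a match to TGACNNNGC on either strand, the core of the antioxidant response element, which NFE2L1 and NFE2L2 are known to bind. Psmb5 is at chr14:54617966-54618245 (minus strand), Psmb6 at chr11:70525107-70525386 (plus strand) and Psma4 at chr9:54950609-54950888 (plus strand).
Psmb5: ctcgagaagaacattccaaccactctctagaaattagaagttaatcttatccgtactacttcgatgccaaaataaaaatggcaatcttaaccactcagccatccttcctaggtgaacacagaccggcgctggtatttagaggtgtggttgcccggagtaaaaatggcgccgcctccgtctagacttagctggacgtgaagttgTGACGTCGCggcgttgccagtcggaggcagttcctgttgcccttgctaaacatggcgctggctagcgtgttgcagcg
Psmb6: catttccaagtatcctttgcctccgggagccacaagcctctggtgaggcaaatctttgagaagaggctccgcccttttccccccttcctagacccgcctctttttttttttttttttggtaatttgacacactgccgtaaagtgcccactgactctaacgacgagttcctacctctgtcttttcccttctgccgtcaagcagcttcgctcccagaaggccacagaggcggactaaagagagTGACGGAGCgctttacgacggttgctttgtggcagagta
Psma4: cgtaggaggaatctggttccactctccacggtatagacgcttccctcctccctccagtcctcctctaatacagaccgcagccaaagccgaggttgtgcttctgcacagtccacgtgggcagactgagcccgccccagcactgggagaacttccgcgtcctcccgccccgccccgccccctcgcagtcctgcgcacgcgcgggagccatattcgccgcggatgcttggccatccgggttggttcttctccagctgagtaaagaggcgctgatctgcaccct
Psmb5 and Psmb6 each hold 1 match and Psma4 holds none in these letters. Promoters were found for 42 of the 49 genes, 46 in all, and the windows searched ran to 50 bases after the start. The motif was in 6 of the 46 (13.0%), against 12.4% of 32851 promoters of the same length. The 6 genes were Psmb5, Psmb6, Psmc6, Psmd12, Psmd9 and Psme4, and in the last step 4 of them were higher and 2 lower. A match is a description of the letters and not a measured binding site.

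Among the beta genes without a catalytic site, Psmb1 rose and Psmb2, Psmb3 and Psmb4 fell. Psmb1 read 9.86, 9.96 and 9.87 at P0, 10.59, 10.52 and 10.55 at P7, 10.63, 10.54 and 10.40 at P15, 10.59, 10.44 and 10.48 at P21 and 11.60, 11.35 and 11.49 at P56. The P56 arrays were again the highest without overlap, by 0.98 (SE 0.08, adjusted p 1.22e-08) over P21 and 1.58 (SE 0.08, adjusted p 3.54e-12) over P0. Psmb3 and Psmb4 are singled out here after their values were seen. Psmb3 read 12.81, 12.79 and 12.77 at P0, 13.22, 13.14 and 13.16 at P7, 13.18, 13.17 and 13.18 at P15, 13.08, 13.03 and 12.78 at P21 and 11.15, 11.03 and 10.93 at P56. The P56 arrays lay below all others, as for Psmb5, with a last step of −1.93 (SE 0.08, adjusted p 5.38e-12), and its other probe set gave −1.54.

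Psmb4 read 12.27, 12.21 and 12.25 at P0, 12.60, 12.57 and 12.56 at P7, 12.17, 12.20 and 11.19 at P15, 12.36, 12.44 and 12.26 at P21 and 10.84, 10.77 and 10.74 at P56. P15 replicate 3 stood apart below the other P15 arrays, and all P56 arrays lay below every other array. The last step was −1.57 (SE 0.18, adjusted p 7.19e-07), and P15 arrays enter it only through the spread of the fit. From P7 to P15 Psmb4 fell by 0.72, and without P15 replicate 3 by 0.39 (adjusted p 0.00109). The first-week change of 0.33 was not called (adjusted p 0.113), and it was called without P15 replicate 3, which leaves the change itself as it was (adjusted p 0.000201). Psmb2 was lower at P56 than at P21 by a change of −0.57, and its end-to-end change of −0.30 turned to 0.03 with array medians set to 0.

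**Figure D3:**
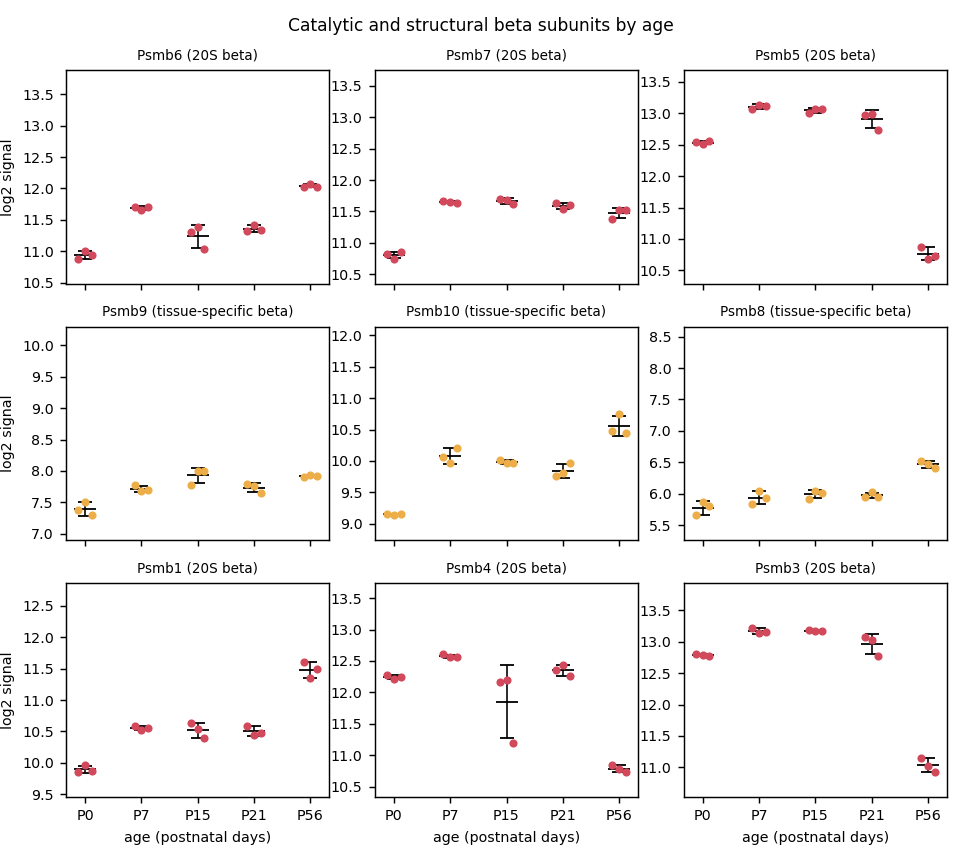
Log2 signal at each age (horizontal axis, postnatal days) for beta subunit genes, a panel per gene. Points are arrays and bars are the mean with its SD over 3 arrays, and every panel spans 3.4 log2 units. Psmb5, Psmb3 and Psmb4 drop at P56, whereas Psmb1 and Psmb6 are highest there.

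Interferon exchanges the catalytic subunits for Psmb8, Psmb9 and Psmb10, which form the immunoproteasome of immune cells, and Psmb11 is known as the catalytic subunit of the thymus. All 4 were higher at P56 than at P0 and than at P21, where 40.1% and 22.1% of all probe sets were higher. Psmb10, the counterpart of Psmb7, read 9.15, 9.14 and 9.15 at P0, 10.06, 9.96 and 10.20 at P7, 10.02, 9.96 and 9.96 at P15, 9.76, 9.81 and 9.97 at P21 and 10.47, 10.75 and 10.45 at P56. Its P56 arrays lay above those of all other ages, and it was higher by 1.41 (SE 0.09, adjusted p 7.09e-11) than at P0. Psmb9, the counterpart of Psmb6, read 7.38, 7.51 and 7.30 at P0, 7.77, 7.68 and 7.70 at P7, 7.78, 8.00 and 8.00 at P15, 7.79, 7.76 and 7.66 at P21 and 7.91, 7.94 and 7.93 at P56. The end-to-end change was 0.53 (SE 0.07, adjusted p 5.62e-06), but the last step of 0.19 (adjusted p 0.0389) was lost on leaving out any of 6 single arrays, all P56 arrays, P21 replicates 2 and 3, and P7 replicate 3.

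Psmb8, the counterpart of Psmb5, read 5.66, 5.86 and 5.80 at P0, 5.84, 6.04 and 5.94 at P7, 5.92, 6.05 and 6.02 at P15, 5.95, 6.02 and 5.94 at P21 and 6.52, 6.47 and 6.41 at P56. All P0 arrays were under the lower quartile, and the change of 0.69 (SE 0.07, adjusted p 1.28e-07) starts from signals that may be background. Psmb11 read 6.06, 5.85 and 5.86 at P0, 5.60, 5.73 and 5.66 at P7, 5.73, 5.85 and 5.88 at P15, 5.69, 5.98 and 5.85 at P21 and 6.27, 6.21 and 6.16 at P56. The P56 arrays were the only ones of an age to lie all above the lower quartile, and the change from P0 was 0.29 (SE 0.08, adjusted p 0.00428). RefSeq places Psmb11 next to Psmb5 on chromosome 14 with 0 protein-coding genes between them, and in the last step the change was 0.37 for Psmb11 and −2.14 for Psmb5. Psmb8 and Psmb9 lie on chromosome 17 with 1 gene between them.

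The 19S base holds ATPases that unfold the substrate. Psmc5 rose most of all 49 genes from end to end. It read 8.91, 8.90 and 8.81 at P0, 10.06, 10.13 and 10.07 at P7, 10.01, 9.96 and 9.79 at P15, 10.23, 10.21 and 10.11 at P21 and 10.90, 10.84 and 10.69 at P56. The P0 arrays were the lowest and the P56 arrays the highest, without overlap with other ages. Psmc5 was higher by 1.21 (SE 0.07, adjusted p 1.42e-10) at P7 than at P0 and by 1.93 (SE 0.07, adjusted p 1.42e-13) at P56 than at P0. Psmc1, Psmc2 and Psmc6 were also higher at P56 than at P0, by 0.88, 1.10 and 0.54. Psmc4 rose by 0.79 in the first week and fell by 0.56 in the last step, and its end-to-end change of 0.08 was not called. With array medians set to 0 that change was 0.40 and was called.

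Among the 11 non-ATPase genes, 6 were higher and 4 lower at P56 than at P0, and Psmd6 was not called. These are 54.5% and 36.4%, where 40.1% of all probe sets were higher and 35.3% lower, so the lower share was near that of all probe sets. Psmd8, a lid subunit, rose most, and read 11.36, 11.34 and 11.25 at P0, 12.39, 12.30 and 12.36 at P7, 12.42, 12.36 and 12.36 at P15, 12.24, 12.16 and 12.23 at P21 and 12.18, 12.11 and 12.24 at P56. All arrays from P7 on lay above those at P0. The first-week change was 1.04 (SE 0.06, adjusted p 8.73e-11), none of the 3 later steps was called, and the P56 level was 0.86 above P0. With array medians set to 0, the change from P15 to P21 was −0.21 and called lower (adjusted p 0.0295), and the last step was 0.20 in place of −0.03 and was called higher (adjusted p 0.0102). Psmd3, Psmd4, Psmd7, Psmd11 and Psmd12 were higher by 0.46 to 0.81. Psmd4 encodes a ubiquitin receptor of the cap and the others lid subunits.

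The 2 large scaffold subunits of the base, Psmd1 and Psmd2, were lower at P56. Psmd1 read 11.96, 11.96 and 12.01 at P0, 11.61, 11.69 and 11.70 at P7, 11.32, 11.33 and 11.35 at P15, 11.58, 11.58 and 11.76 at P21 and 11.04, 11.05 and 11.03 at P56. It was highest at P0 and fell by 0.31 at P7 (adjusted p 0.000353), the only constitutive core or cap gene called lower in the first week. Its end-to-end change was −0.93 (SE 0.06, adjusted p 3.41e-10). Psmd2 read 11.84, 11.79 and 11.75 at P0, 12.30, 12.35 and 12.32 at P7, 12.02, 12.02 and 11.81 at P15, 12.40, 12.33 and 12.14 at P21 and 11.05, 11.21 and 10.98 at P56. It rose by 0.53 in the first week, and its last step was −1.21 (SE 0.08, adjusted p 1.7e-09), with −1.23 from its other probe set. Psmd14, the deubiquitinase of the lid, changed by −0.24 from end to end and Psmd13 by −0.22. Both calls ended with array medians set to 0 and on leaving out 2 single arrays each: P0 replicate 2 or P56 replicate 1 for Psmd14, and P0 replicate 1 or P56 replicate 3 for Psmd13.

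Of the 4 activators, 2 were lower at P56 than at P0 (50%), 2 were not called and no gene was higher. Over all probe sets, 40.1% were higher and 35.3% lower. With array medians set to 0, Psme3 was called higher. Psme1 and Psme2 encode the subunits of PA28, an interferon-inducible ring that opens the core, and their courses differed. Psme1 (probe set 10415282) read 10.83, 10.81 and 10.83 at P0, 10.06, 9.92 and 10.00 at P7, 8.98, 9.11 and 8.93 at P15, 8.46, 8.64 and 8.65 at P21 and 9.06, 9.22 and 9.20 at P56. The P0 arrays were the highest and the P21 arrays the lowest, and of all pairs of ages only P15 and P56 overlapped. It fell in each of the first 3 steps, by 0.83, 0.99 and 0.43 on the log2 scale, and then rose by 0.58. The end-to-end change was −1.66 (SE 0.07, adjusted p 1e-12), and the step from P7 to P15 had an adjusted p of 7.14e-08. Microglial markers, whose list mean was also higher at P0 than at P7, lay between 6.54 and 6.92 on all arrays from P15 on, and their part in the fall of Psme1 was not tested.

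Psme2 read 10.00, 10.05 and 10.13 at P0, 11.18, 11.09 and 11.11 at P7, 10.88, 10.89 and 10.46 at P15, 10.83, 10.84 and 10.49 at P21 and 10.00, 9.73 and 9.87 at P56. It was highest at P7, 1.06 (SE 0.11, adjusted p 1.81e-07) above P0, and the last step was −0.85 (SE 0.11, adjusted p 5.26e-06). The P56 and P0 levels differed by −0.19 (adjusted p 0.127), and by 0.13 with array medians set to 0. In the first week, Psme1 and Psme2 were therefore called in opposite directions, and the same holds for the last step with the directions exchanged. RefSeq places both on chromosome 14 with 1 protein-coding gene between them.

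The promoter of Psme1 is shown because PA28 is known as an interferon target. It lies at chr14:55578244-55578523 (plus strand, GRCm38.p6, RefSeq), from 250 bases before the start to 30 after it. Capitals mark GAAA, any 2 bases and GAAA again, the core of the interferon-stimulated response element, found here on the opposite strand.
Psme1: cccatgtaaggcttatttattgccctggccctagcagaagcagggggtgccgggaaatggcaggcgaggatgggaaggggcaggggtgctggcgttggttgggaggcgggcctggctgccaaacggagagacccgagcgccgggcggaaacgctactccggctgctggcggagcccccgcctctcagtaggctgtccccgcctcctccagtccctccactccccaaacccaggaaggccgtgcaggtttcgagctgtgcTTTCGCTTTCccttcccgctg
This motif was in 5 of the 46 promoters (10.9%), against 3.4% of all 32851 of the same length. Both strands were searched, and the genes were Psme1, Psmb3, Psmd4, Psmd9 and Psmg4. In the last step 2 of these were higher, 2 lower and Psmd4 was not called. The promoters of Psme2, Psmb8, Psmb9 and Psmb10, the other genes linked to interferon above, held no match.

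Psme3 encodes the nuclear PA28 ring. It read 11.63, 11.67 and 11.64 at P0, 11.77, 11.83 and 11.73 at P7, 11.96, 11.89 and 11.98 at P15, 11.73, 11.63 and 11.68 at P21 and 11.54, 11.63 and 11.53 at P56. The end-to-end change of −0.08 was not called (adjusted p 0.255), and with array medians set to 0 it was 0.25 and called higher. Psme4 encodes PA200, a nuclear activator. It read 10.39, 10.47 and 10.42 at P0, 10.30, 10.37 and 10.25 at P7, 10.19, 10.09 and 10.20 at P15, 10.13, 9.99 and 10.08 at P21 and 9.48, 9.75 and 9.70 at P56, lowest at P56, and its end-to-end change was −0.78 (SE 0.07, adjusted p 3.77e-08). Psme3ip1, a partner of the nuclear PA28, read 10.31, 10.22 and 10.37 at P0, 10.55, 10.53 and 10.58 at P7, 10.64, 10.65 and 10.62 at P15, 10.61, 10.55 and 10.61 at P21 and 10.16, 10.11 and 10.15 at P56. It changed by −0.16 from end to end (adjusted p 0.0224), and this turned to 0.16 with array medians set to 0. Omitting P56 replicate 2 also ended this call, as did omitting replicate 1 or 3 of P0 (adjusted p 0.0522 to 0.102).

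Psmf1, which encodes the inhibitor PI31, read 11.09, 11.11 and 11.01 at P0, 11.17, 11.11 and 11.11 at P7, 11.18, 11.10 and 11.10 at P15, 11.20, 11.09 and 11.07 at P21 and 10.85, 11.09 and 11.13 at P56. The ages overlapped, and none of the 4 steps was called. Its end-to-end change was −0.04 (SE 0.07, adjusted p 0.605), and it was 0.28 and called higher with array medians set to 0.

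Of the role groups, the assembly factors had the largest first-week median change, 0.94, against 0.05 over all probe sets. Psmg1 and Psmg2 pair to build the alpha ring. Psmg2 had the largest first-week rise of all 49 genes, and read 9.19, 9.08 and 9.05 at P0, 11.06, 11.07 and 11.06 at P7, 11.37, 11.37 and 11.49 at P15, 11.27, 11.17 and 11.27 at P21 and 10.68, 10.62 and 10.55 at P56. The P0 arrays stood far below all others. Psmg2 was higher by 1.96 (SE 0.07, adjusted p 4.09e-14) at P7 than at P0 and by 0.34 at P15 than at P7, then fell by 0.62 in the last step, which left it 1.51 (SE 0.07, adjusted p 6.47e-13) above P0.

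Psmg1 read 9.40, 9.40 and 9.15 at P0, 10.25, 10.23 and 10.28 at P7, 10.29, 10.24 and 10.10 at P15, 10.10, 10.09 and 9.95 at P21 and 9.73, 9.60 and 9.58 at P56. It followed a similar course with smaller changes, 0.94 (SE 0.08, adjusted p 1.06e-08) in the first week and −0.41 in the last step. That last call ended with array medians set to 0, where the change was −0.17. The other alpha-ring chaperone pair, Psmg3 and Psmg4, parted in the last step. Psmg3 read 6.58, 6.38 and 6.62 at P0, 7.30, 7.33 and 7.31 at P7, 7.28, 7.19 and 6.92 at P15, 7.16, 7.29 and 7.22 at P21 and 7.65, 7.53 and 7.43 at P56, and its P56 arrays were the highest, 1.01 (SE 0.09, adjusted p 1.53e-08) above P0. Psmg4 read 8.51, 8.50 and 8.59 at P0, 9.73, 9.65 and 9.71 at P7, 9.56, 9.57 and 9.52 at P15, 9.39, 9.60 and 9.72 at P21 and 9.00, 9.18 and 8.82 at P56. It rose by 1.16 in the first week and fell by 0.57 in the last step (adjusted p 3.65e-05).

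Psmd5, Psmd9 and Psmd10 are chaperones of the 19S base and are not kept in the finished cap. Psmd10, also known as gankyrin, read 9.09, 8.96 and 8.97 at P0, 10.31, 10.37 and 10.34 at P7, 10.45, 10.47 and 10.56 at P15, 10.65, 10.62 and 10.60 at P21 and 9.93, 10.01 and 9.87 at P56. Its mean was highest at P21, after a first-week change of 1.33 (SE 0.06, adjusted p 4.25e-12), and the last step was −0.69 (SE 0.06, adjusted p 7.57e-08). Psmd5 read 10.12, 10.21 and 9.99 at P0, 10.60, 10.66 and 10.60 at P7, 10.64, 10.54 and 10.60 at P15, 10.81, 10.69 and 10.76 at P21 and 10.33, 10.89 and 10.70 at P56. Its P56 arrays were the most scattered, and it was 0.54 (SE 0.11, adjusted p 0.000191) above P0. Psmd9 read 8.26, 8.27 and 8.28 at P0, 8.86, 8.75 and 8.80 at P7, 8.66, 8.65 and 8.72 at P15, 8.60, 8.71 and 8.57 at P21 and 8.86, 8.90 and 8.75 at P56, with an end-to-end change of 0.57 (SE 0.06, adjusted p 2.89e-07). All 7 assembly genes were higher at P56 than at P0, and 4 of them (Psmd10, Psmg1, Psmg2 and Psmg4) were lower than at P21. Of all probe sets 40.1% were higher than at P0 and 34.3% lower than at P21.

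Psmc3ip, which acts in meiotic recombination, is not a proteasome gene. It read 6.56, 6.52 and 6.61 at P0, 7.04, 6.93 and 6.97 at P7, 6.89, 6.97 and 6.96 at P15, 6.75, 6.69 and 6.65 at P21 and 7.25, 7.24 and 7.07 at P56, with an end-to-end change of 0.62 (SE 0.07, adjusted p 1.56e-07).

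**Figure D4:**
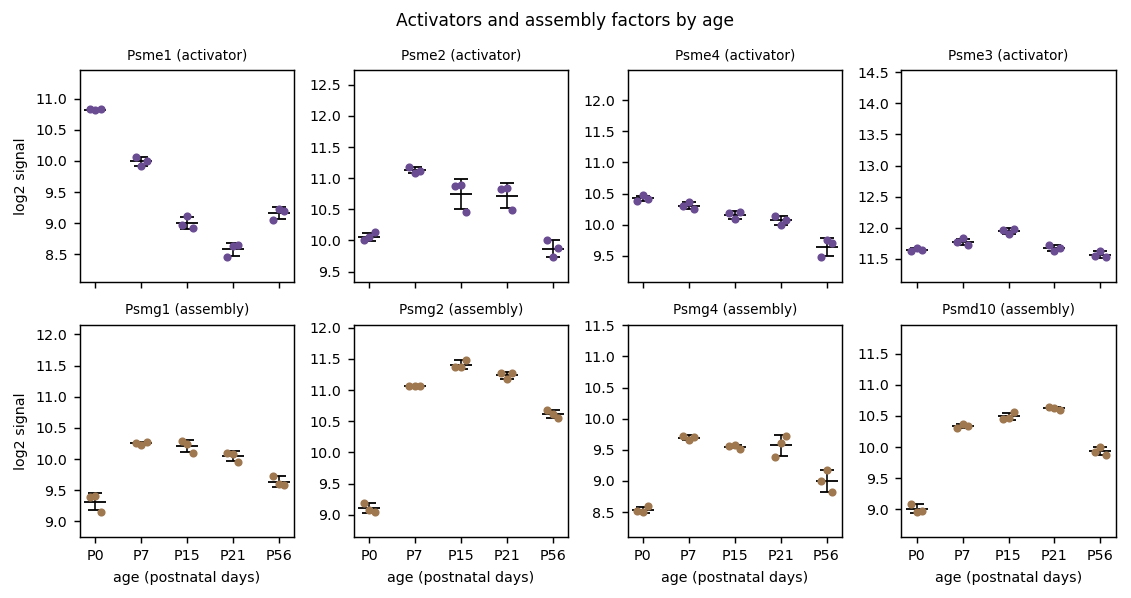
Log2 signal at each age (horizontal axis, postnatal days) for activator and assembly genes, a panel per gene. Points are arrays and bars are the mean with its SD over 3 arrays, and every panel spans 3.4 log2 units. Psme1 declines to P21 while Psme2 and the 4 assembly genes are higher at P7 than at P0.

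Of 9 measured partners of the proteasome outside the symbol rule, 6 were higher and 2 lower at P56 than at P0 (66.7% and 22.2%), where 40.1% of all probe sets were higher and 35.3% lower. Their median change was 0.54, against 0.08 over all probe sets. The largest was Sem1, a small lid subunit, which read 8.66, 8.61 and 8.54 at P0, 10.08, 10.07 and 9.97 at P7, 10.11, 10.02 and 9.93 at P15, 10.03, 9.92 and 10.02 at P21 and 11.80, 11.44 and 11.40 at P56 and changed by 2.94 (SE 0.09, adjusted p 8.05e-15). Uchl5, a deubiquitinase of the cap, changed by 2.38, Pomp, the chaperone of beta ring assembly, by 1.73 and Zfand5, a protein known to stimulate the proteasome, by 1.34. The partners named next were chosen after their values were seen. The 2 lower ones were Ecpas, which binds the 26S particle, and Usp14, a deubiquitinase of the cap, with changes of −0.77 and −0.53. Akirin2, known for nuclear import of proteasomes, changed by −0.02 and was not called.

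Among 6 genes of the NFE2L1 and NFE2L2 pathway, which is known to drive proteasome genes under stress, 2 were higher and 2 lower at P56 than at P0 (33.3% each), near the 40.1% and 35.3% of all probe sets. The higher genes were Keap1, which holds NFE2L2 in check, with 1.27, and Mafk, a partner on DNA, with 0.38. Nfe2l1 changed by −0.41. Nfe2l2 read 7.98, 8.20 and 8.11 at P0, 8.39, 8.65 and 8.57 at P7, 8.12, 8.12 and 8.18 at P15, 9.46, 9.37 and 9.77 at P21 and 7.61, 7.61 and 7.71 at P56, so the P21 arrays stood above all others. It was 1.39 higher at P21 than at P15, and the last step was −1.89 (SE 0.10, adjusted p 5.75e-11).

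Upstream of the proteasome, of 10 measured genes for ubiquitin activation, hydrolysis or delivery, 1 was higher and 6 were lower at P56 than at P0 (10% and 60%, beside the same 40.1% and 35.3%), with a median change of −0.47. The ubiquitin-activating enzyme Uba6 changed by −1.61 (SE 0.11, adjusted p 2.19e-10). Vcp, the segregase that extracts ubiquitinated proteins, changed by −0.93, and its cofactors Ufd1 and Nploc4 by −0.90 and −0.84. The gene that was higher, named here after its value was seen, was the shuttle Rad23b, with 0.39. Of 7 measured interferon and antigen presentation genes, 3 were higher and 3 lower at P56 than at P0 (42.9% each), near the 40.1% and 35.3% of all probe sets. B2m, the light chain of MHC class I, changed by −1.92 (SE 0.10, adjusted p 8.69e-12), and Tapbp, which loads peptides onto MHC class I, by −1.07. The peptide transporter genes parted, with −1.02 for Tap1 and 0.74 for Tap2. B2m fell in the same week as the microglial and endothelial markers, and their part in its change was not tested.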

How the data were processed

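Per the labels' protocols, RNA bound to tagged ribosomes of pooled cerebella was amplified, biotin-labelled and put on Affymetrix arrays, with 3 arrays for each of 5 ages. The authors deposited log2 signals, already normalized, with a value for each probe set. The base was read from the values (3.15 to 14.08) and is not stated in the labels. Affymetrix Power Tools is named in the submitters' processing notes, and its algorithm and version are not given. All values entered the tests as deposited, and precision is limited by having 3 arrays at an age.

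All 22092 probe sets were fitted with limma 3.58.1 (R 4.3.3), with a mean for each age over 15 arrays, 10 residual degrees of freedom and 6.5 added by the prior. Benjamini-Hochberg adjustment was made over all probe sets of a comparison, and tests were two-sided. SE is that of the fit, and SD is that of 3 arrays. A permutation test of 3 against 3 arrays cannot go below p = 0.1. Separate pools of animals are not stated, so each p-value reflects only array-to-array spread, which may be technical. Batches and scan dates are unknown, so batch and age cannot be told apart.

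Names came from a platform annotation of 2016, with a single symbol for 20996 probe sets, several for 91 and none for 1005. Of the 49 genes, 5 have several probe sets (Psma3, Psma5, Psmb3, Psmc1 and Psmd2), and a short probe can also read a near-identical pseudogene. By rule, every array is given for the largest rise and fall of each role and each step and for all catalytic, activator, inhibitor and assembly genes, and other lists have up to 4 genes named. The genes and lists were chosen with earlier results of these data known. The test was checked on simulated data. Alternatives were array medians set to 0, quantile normalization, a prior that is trended and robust, array weights, a block for the replicate number, dropping the dimmest 50% of probe sets, averaging the probe sets of a gene, and omitting each array. Fits without the P0 or the P56 age were chosen after seeing the data. Matplotlib 3.10.9 under Python 3.11.15 drew the figures.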

Additional observations from a re-analysis of the deposited data

How the results depend on the processing

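Leaving out each array in turn gave 31 genes higher and 10 to 12 lower for P56 minus P0, 39 to 41 and 2 to 3 for P7 minus P0, 1 to 3 and 12 to 15 for P15 minus P7, 2 to 8 and 3 to 7 for P21 minus P15, 20 to 22 and 17 to 19 for P56 minus P21, and 15 to 18 and 22 to 24 for P56 minus P7. In each of these fits 48 genes differed between some ages. For P15 minus P7, the single gene higher became 2 with quantile normalization or with a gene's probe sets averaged, 3 with a trended and robust prior, 4 without the dimmest 50% of probe sets or in the fit without the P56 age, and 5 with array medians set to 0 or array weights. Setting array medians to 0 also left 7 genes lower for P56 minus P0, where 12 were lower as deposited, and 3 higher for P21 minus P15, where 6 were higher as deposited and 10 without the dimmest 50% of probe sets. The same setting turned the P56 minus P0 changes of Psme2 to 0.13, Psme3 to 0.25, Psme3ip1 to 0.16 and Psmf1 to 0.28. Over the fits that leave out an array, Psmf1 changed by −0.096 to 0.043, the highest without P56 replicate 1. The cause was not tested. For P56 minus P0 alone, the 29 genes named by rule gave 633 values under the alternatives, of which 621 kept their direction and their side of the threshold, 6 fell short of it, 1 passed it and 5 reversed. Over all 49 genes and 6 comparisons, leaving out single arrays gave 4410 values, in which 65 calls were lost and 27 gained, 28 and 6 of them in P21 minus P15 and 17 and 0 in P56 minus P7. Deviations from the age mean were correlated between arrays of different ages. Over 30 same-numbered pairs r was −0.31 to 0.45 (median −0.003), and over 60 differently numbered pairs −0.42 to 0.24 (median 0.002). Between P15 and P21, r was 0.33 for replicate 1, 0.45 for replicate 2 and 0.02 for replicate 3. Crossing replicates 1 and 2 of these ages gave −0.42 and −0.34, so a link by number is not excluded there. With a replicate block, 31 genes were higher and 12 lower for P56 minus P0, 41 and 3 for P7 minus P0, 7 and 6 for P21 minus P15, and no other count moved. Probe sets near the lower quartile, such as those of Psma8, Psmb8 and Psmb11, limit what the arrays can show.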
